A study of Mus musculus with 88 samples.

Results

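The 8 genes described here encode sensors of foreign or misplaced nucleic acids and regulators of interferon. They are the cytosolic RNA helicases Ifih1 (MDA5), Ddx58 (RIG-I) and Dhx58 (LGP2), the endosomal receptor Tlr3, the Z-form nucleic acid sensor Zbp1, the DNA exonuclease Trex1 and the transcription factors Irf3 and Irf7. They were taken by gene symbol and make 8 of the 18069 genes that a probe named, and all 8 were among the 13465 genes tested. Each had 1 probe. RNA was measured on 88 single-colour arrays of 4 mouse tumours grown in the hind legs of C3H/HeNrs mice. By their labels, NR-S1 and SCCVII are carcinomas of squamous cells, NFSa is a spontaneous fibrosarcoma and #8520 is a fibrosarcoma induced by radiation. Each tumour is 1 transplanted line, and the tissue holds host cells beside tumour cells. In the carbon-ion arm tumours were untreated or received 30 Gy of carbon ions, and in the gamma arm they were untreated or received 30 or 50 Gy of gamma rays. Irradiated tumours were taken at 6 h, day 1 or day 3, and each of the resulting 44 groups has 2 arrays.

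Cells carry these sensors to notice nucleic acid in the wrong place or form. MDA5 and RIG-I bind double-stranded RNA in the cytosol and signal through the adaptor MAVS, LGP2 tunes both, and TLR3 detects double-stranded RNA in endosomes. The signals end on IRF3, which is present beforehand and is switched on by phosphorylation, and on IRF7, which is itself an interferon-stimulated gene. Secreted interferon then raises a programme of antiviral genes that includes most of the sensors. TREX1 degrades cytosolic DNA and limits signalling through cGAS and STING, and ZBP1 can start necroptosis, a lytic form of cell death.

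A level is the log2 of the deposited intensity, with array medians of 1.02 to 1.07 before the log. A response is the mean level of an irradiated group minus that of its tumour's untreated group in the same arm, and a mean response averages 4 tumours, 8 arrays against 8, or 8 against 7 for Zbp1 after carbon ions, where 1 untreated SCCVII array has no value. A change passed where its adjusted p was under 0.05 (limma, Benjamini-Hochberg over all genes tested). Whether paired arrays stem from different animals is not in the labels, so p-values measure only the spread between arrays, which may be technical. Paired arrays had r of 0.990 to 0.998 across genes. Of the tumours labelled squamous, NR-S1 carried keratinocyte RNA, with 7 markers summing to 668 to 1803, and SCCVII far less, at 3.50 to 15.3. In the fibrosarcomas these markers summed to 2.0 to 6.1. On 8 arrays, those of SCCVII and #8520 at 50 Gy on day 1 and day 3, the dimmest probes were brighter than on the other 80. The 2 arms had separate untreated tumours, and these differed within a tumour, as shown further on.

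The RefSeq promoter table (GRCm38.p6) held 6 of the 8 genes. Dhx58 and Zbp1 had no entry. The windows, from 250 bases before to 50 after a start, were searched on both strands for the core of the interferon-stimulated response element, which interferon regulatory factors bind, spelled as GAAA, any 2 bases and GAAA. It occurred in Ifih1 and Ddx58 and not in Tlr3, Trex1, Irf3 or Irf7, and 3.44% of all 32851 promoters in the table held it. The letters TTCNNNGAA, a STAT site, occurred in no member and in 8.3% of promoters. A shorter form, AANNGAAA, was searched after the longer one and overlaps it. It was also in Tlr3, on the strand opposite to the gene, and 23.9% of promoters held it. The stretches around these letters are shown because these 3 RNA sensors held a match, with the longer form in capitals for Ddx58 and Ifih1 and the shorter one for Tlr3. All 3 genes lie on the minus strand and the letters run 5′ to 3′ along the gene. The Ddx58 stretch is chr4:40239814-40239886, from base -61 to base 12 of the transcript, that of Ifih1 is chr2:62646206-62646235, from base 21 to base 50, and that of Tlr3 is chr8:45410381-45410481, from base -101 to -1.
Ddx58: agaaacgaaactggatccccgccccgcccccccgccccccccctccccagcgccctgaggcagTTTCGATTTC
Ifih1: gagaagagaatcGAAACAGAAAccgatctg
Tlr3: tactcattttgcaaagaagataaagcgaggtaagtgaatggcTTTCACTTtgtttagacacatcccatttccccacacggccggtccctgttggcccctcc
In Ddx58 and Ifih1 the match lay just past the start, at bases 3 to 12 and 33 to 42. The arrays measured RNA and not binding, so a match describes these letters alone.

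At day 3 the sensors and Irf7 were higher in irradiated tumours in all 3 arms, and Irf3 was lower. After carbon ions 7 of the 8 genes rose in the mean over 4 tumours and Irf3 fell, against 26.4% of all genes that rose and 41.8% that fell. After 30 Gy of gamma rays the counts were again 7 and 1, against 23.1% and 30.9%, and after 50 Gy 7 and 1, against 28.7% and 44.7%. The median response of the 8 was 1.15, 0.97 and 0.99 on the log2 scale, beside medians of -0.079, -0.021 and -0.083 over all genes tested. Both gamma doses share their untreated arrays. In bulk tissue a change in how many cells carry a transcript and a change in RNA per cell cannot be told apart. With each tumour as 1 replicate, 5 of the 8 passed after carbon ions (Ddx58, Ifih1, Irf7, Trex1 and Zbp1), 0 after 30 Gy and 0 after 50 Gy of gamma rays in limma, where 7 and 6 had an unadjusted p under 0.05.

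**Figure D1:**
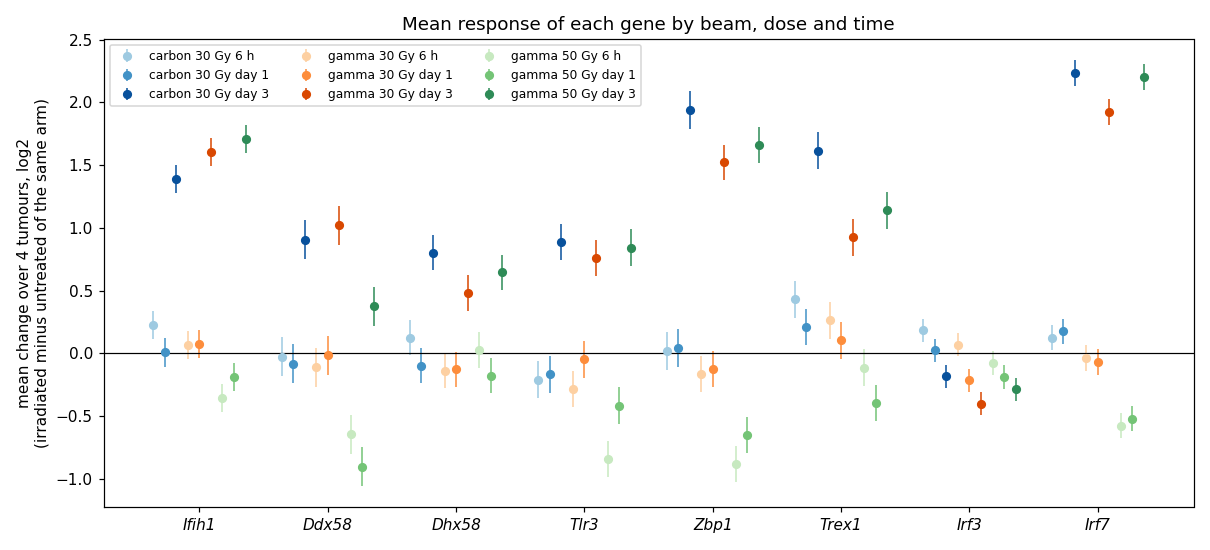
Mean response over 4 tumours (y axis, log2) of the 8 genes (x axis) at 6 h, day 1 and day 3 after carbon ions (blue), 30 Gy of gamma rays (orange) and 50 Gy of gamma rays (green); points are means of 8 arrays against 8 (8 against 7 for Zbp1 after carbon ions) and bars are 95% confidence intervals of the fit. At day 3 Irf7 stood at 2.23, 1.92 and 2.20, while the values at 6 h and day 1 lay between -0.90 and 0.43 for all 8 genes.

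Of the RNA sensors, Ifih1, which senses long double-stranded RNA, had the largest mean response in each arm. Its untreated levels in the carbon arm were 4.93 and 4.95 in NR-S1, 5.02 and 5.23 in SCCVII, 4.27 and 4.14 in NFSa and 5.80 and 5.60 in #8520. At day 3 after carbon ions they were 6.07 and 6.11, 6.76 and 6.90, 6.14 and 5.83 and 6.63 and 6.64. Both irradiated arrays lay above both untreated arrays in each tumour, and #8520, the highest at the start, rose least. The mean response was 1.39 (SE 0.056, adjusted p = 2.1e-28, limma), a 2.62-fold rise. After gamma rays it was 1.60 at 30 Gy and 1.71 at 50 Gy, the highest in NR-S1 at 2.23 and 2.32. In the gamma arm NR-S1 began at 2.97 and 3.05 and reached 5.26 and 5.23 after 30 Gy, so that its day 3 level remained below the other tumours'.

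Ddx58, which senses short RNA with phosphorylated ends, rose in all 4 tumours after carbon ions. Its carbon-arm levels went from 3.28 and 3.16 to 3.65 and 3.56 in NR-S1, from 3.34 and 3.47 to 4.43 and 4.76 in SCCVII, from 3.83 and 3.87 to 4.92 and 4.99 in NFSa and from 4.30 and 3.98 to 5.01 and 5.14 in #8520. No irradiated array overlapped the untreated ones, with the narrowest gap in NR-S1. Over the 4 tumours it rose by 0.91 (SE 0.078, adjusted p = 4.1e-15, limma), and 1.02 after 30 Gy of gamma rays. After 50 Gy it was 0.38, with a rise of 1.79 in NFSa and 1.43 in NR-S1 and falls to -1.09 in SCCVII and -0.63 in #8520. The SCCVII and #8520 arrays of that dose and day are among the 8 with raised dim probes. On those 8 the Ddx58 intensity was 3.46 to 13.2, above their 1st percentiles of 0.297 to 0.378. Without both tumours the mean response was 1.61, and without NFSa it was -0.096. The part of these arrays in the fall was not tested.

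Dhx58, which lacks a signalling domain and tunes its relatives, rose in 3 of 4 tumours after carbon ions. Its levels went from -0.32 and -0.69 to 0.58 and 0.61 in SCCVII, from -0.56 and -0.22 to 0.95 and 0.96 in NFSa and from 0.88 and 0.80 to 1.64 and 1.71 in #8520. In NR-S1 they were 1.09 and 0.81 before and 1.11 and 0.67 after. The NR-S1 pairs overlapped and the other pairs did not. The mean response was 0.80 (SE 0.070, adjusted p = 8.0e-15, limma), 0.48 after 30 Gy and 0.65 after 50 Gy of gamma rays. NR-S1 missed the threshold in all 3 arms, at -0.061, 0.17 and -0.25, with 95% intervals of -0.34 to 0.22, -0.11 to 0.45 and -0.53 to 0.030. Those values rest on the arm of the untreated arrays, which differed as described further on. Set against the untreated arrays of both arms they were -0.93, 1.04 and 0.61, and all 3 passed (limma).

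Tlr3 likewise rose outside NR-S1 after carbon ions. Its carbon-arm levels went from 1.36 and 1.36 to 2.32 and 2.33 in SCCVII, from 0.60 and 0.51 to 2.38 and 2.14 in NFSa and from 2.01 and 1.96 to 3.16 and 3.21 in #8520. In NR-S1 they were 1.93 and 1.76 untreated and 1.76 and 1.29 at day 3. The irradiated arrays stood apart in the first 3 tumours, and in NR-S1 the pairs met near 1.76. Its mean response was 0.89 (SE 0.072, adjusted p = 6.1e-16, limma), with 0.76 and 0.84 after the gamma doses. In NR-S1 the values were -0.32 after carbon ions, 0.37 after 30 Gy and 0.26 after 50 Gy of gamma rays, of which the one at 30 Gy passed. With the untreated arrays of both arms the 3 values were 0.14, -0.088 and -0.19, and none passed.

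Zbp1, the Z-form sensor, had its lowest untreated levels in NR-S1. Carbon-arm levels in NR-S1 went from 2.86 and 2.74 to 5.26 and 5.30, and in NFSa from 3.42 and 3.14 to 5.79 and 5.68. In SCCVII a single untreated array had a value, 4.32, the other being missing, and day 3 gave 6.26 and 6.29. Responses of Zbp1 to carbon ions in SCCVII thus rest on 1 untreated array, which the fit takes to vary like the other groups. In #8520 the levels went from 5.08 and 5.09 to 5.83 and 6.06. The tumours thus lay closer together at day 3 than before. The mean response was 1.94 (SE 0.075, adjusted p = 5.1e-29, limma), a 3.84-fold rise, with 1.52 and 1.66 after 30 and 50 Gy of gamma rays. The largest single response of any member was that of Zbp1 in NR-S1 after 50 Gy, 3.40 (SE 0.14), from 1.35 and 1.27 to 4.72 and 4.70, beside 3.39 for Irf7 in SCCVII after carbon ions. That first rank rests on the untreated gamma arm, with a Zbp1 mean of 1.31 in NR-S1 beside 2.80 in the carbon arm. The untreated arms of Irf7 in SCCVII differed by 0.10.

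Trex1, the exonuclease that clears cytosolic DNA, rose in every tumour and arm at day 3. Its carbon-arm levels went from 2.58 and 2.61 to 4.48 and 4.73 in NR-S1 and from 3.42 and 3.31 to 5.09 and 5.09 in SCCVII. They went from 3.64 and 3.61 to 5.39 and 5.27 in NFSa and from 4.31 and 4.43 to 5.30 and 5.48 in #8520. All irradiated arrays lay above the untreated ones of their tumour. On average it rose by 1.62 (SE 0.073, adjusted p = 2.5e-26, limma), a 3.06-fold rise, and 0.93 after 30 Gy and 1.14 after 50 Gy of gamma rays. Its mean response to carbon ions was 0.43 at 6 h already, and single tumours passed in NR-S1, SCCVII and NFSa at 0.60, 0.53 and 0.55, and not in #8520 at 0.062. With the untreated arrays of both arms the mean at 6 h was 0.19 (adjusted p = 0.011, limma) and NFSa stood at 0.023. With each tumour as 1 replicate the mean at 6 h did not pass (adjusted p = 0.11).

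Irf7, the interferon-inducible regulator, rose most of the 8 in the mean of each arm. Its carbon-arm levels went from 5.99 and 6.11 to 8.39 and 8.10 in NR-S1 and from 4.69 and 4.58 to 7.98 and 8.07 in SCCVII. They went from 5.24 and 5.18 to 7.77 and 7.47 in NFSa and from 6.51 and 6.76 to 7.62 and 7.54 in #8520. SCCVII started lowest and moved furthest, by 3.39, and #8520 started highest and moved least, by 0.95. The mean over tumours was 2.23 (SE 0.051, adjusted p = 2.2e-39, limma), a 4.70-fold rise, against 1.92 and 2.20 after the gamma doses. Irf3, the regulator that is present beforehand, moved the other way and far less. Its carbon-arm levels were 1.77 and 1.73 in NR-S1, 1.95 and 1.90 in SCCVII, 2.20 and 2.09 in NFSa and 2.42 and 2.60 in #8520 without treatment. At day 3 they were 1.52 and 1.39, 1.84 and 1.82, 1.97 and 2.14 and 2.30 and 2.24. The pairs overlapped in NFSa and lay slightly lower in the other 3 tumours, of which NR-S1 and #8520 passed. Its mean response was -0.18 (SE 0.046, adjusted p = 0.00054, limma), with -0.40 after 30 Gy and -0.28 after 50 Gy. Quantile normalization took the last to -0.069 (adjusted p = 0.16).

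**Figure D2:**
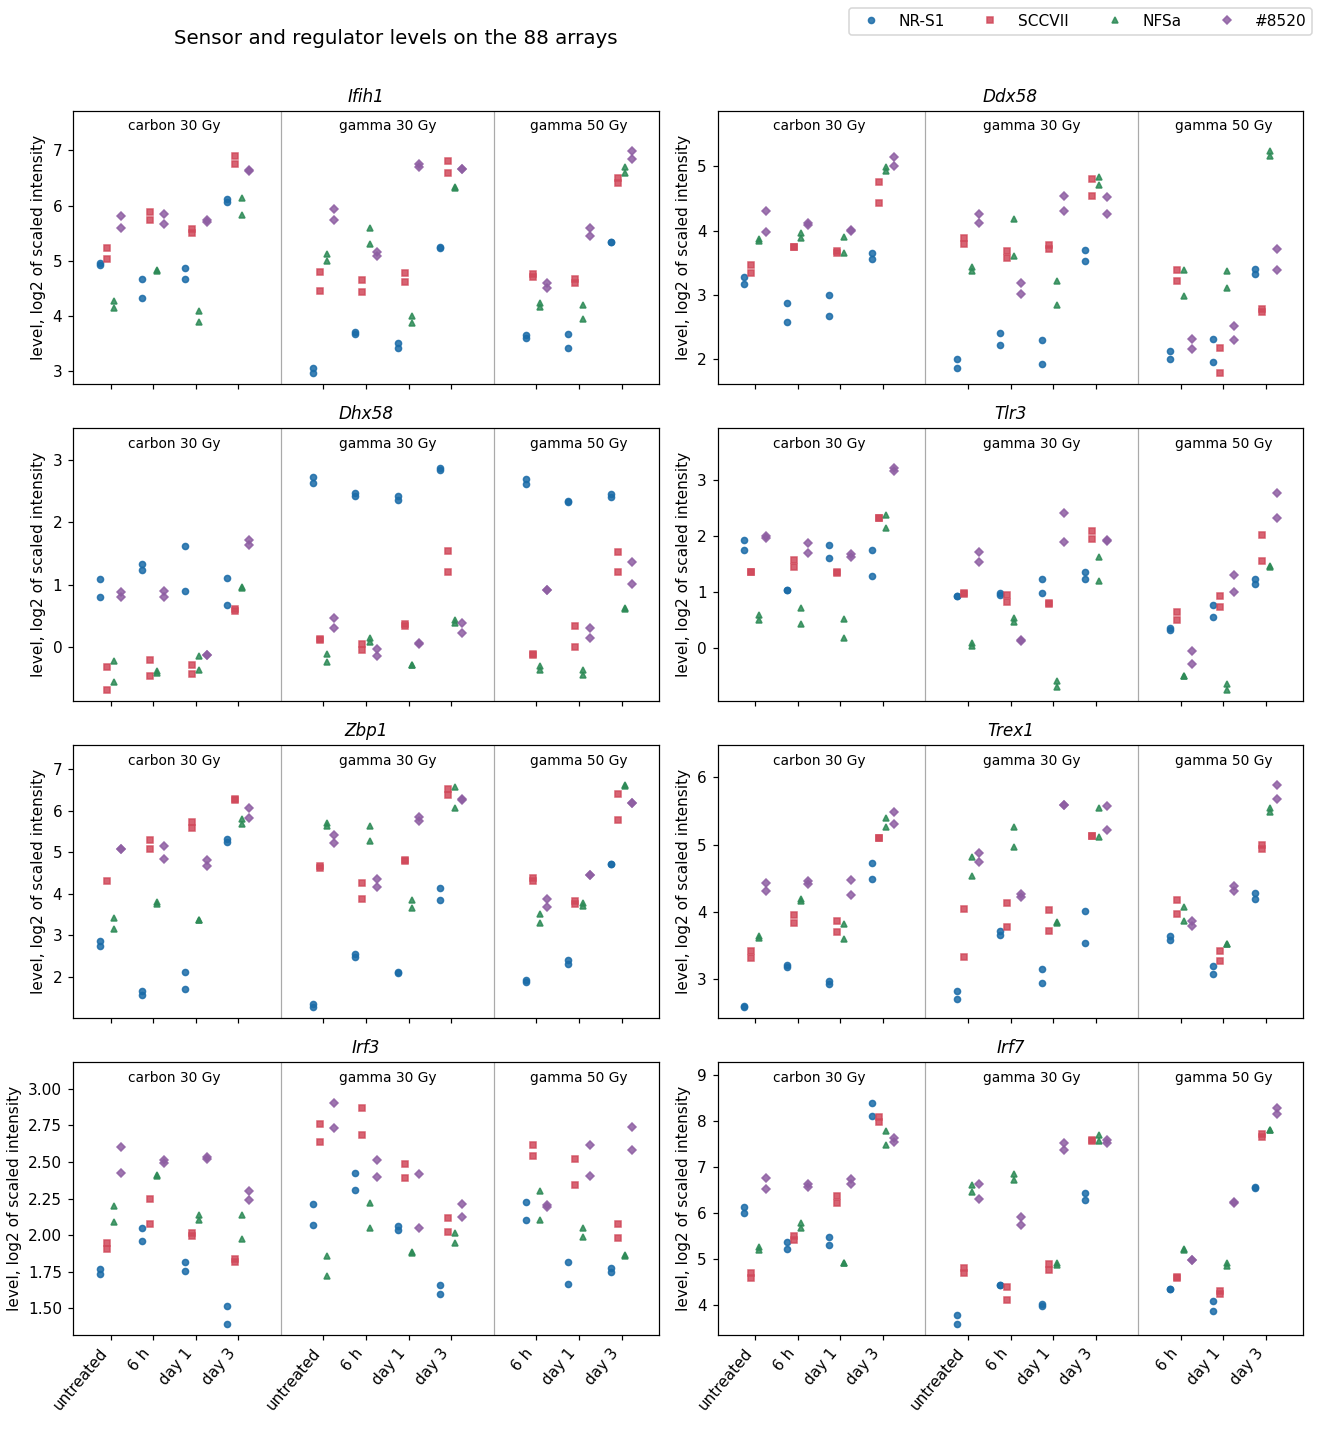
Levels of the 8 genes (y axes, log2 of the scaled intensity, with a separate range per panel) on each of the 88 arrays, by arm and time (x axis) and by tumour (colour and symbol). The 24 day 3 arrays of Irf7 lie between 6.28 and 8.39 and the 16 untreated ones between 3.57 and 6.76, while in Irf3 both sets overlap from 1.72 to 2.74.

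The size of the day 3 response differed between tumours. A moderated F test passed for 7 of 8 genes after carbon ions, beside 61.9% of all genes, and for 8 of 8 after 30 and 50 Gy of gamma rays, beside 56% and 77%. Irf3 after carbon ions was the exception. At 6 h and day 1 it passed for 5 and 4 members after carbon ions, beside 45% and 58.3% of all genes. The counts were 8 and 7 after 30 Gy of gamma rays, beside 36.9% and 52.4%, and 8 and 7 after 50 Gy, beside 59.6% and 76.5%. Counted by tumour after carbon ions, 7 members rose in SCCVII, 7 in NFSa and 7 in #8520, beside 23.5%, 19.3% and 19.1% of all genes. In NR-S1 5 rose, beside 20.9%. After 30 Gy of gamma rays 6 rose in NR-S1, 7 in SCCVII, 7 in NFSa and 4 in #8520, beside 12.6%, 17.2%, 15.1% and 19.8% of all genes. In #8520 the values of Ddx58, Dhx58 and Tlr3 were 0.20, -0.072 and 0.29 and missed the threshold, whereas after carbon ions they rose by 0.94, 0.83 and 1.20. The differences between the beams, 0.74, 0.91 and 0.91, passed. After 50 Gy 5 rose in NR-S1, 6 in SCCVII, 7 in NFSa and 6 in #8520, beside 17%, 21.7%, 20.6% and 27.8%.

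**Figure D3:**
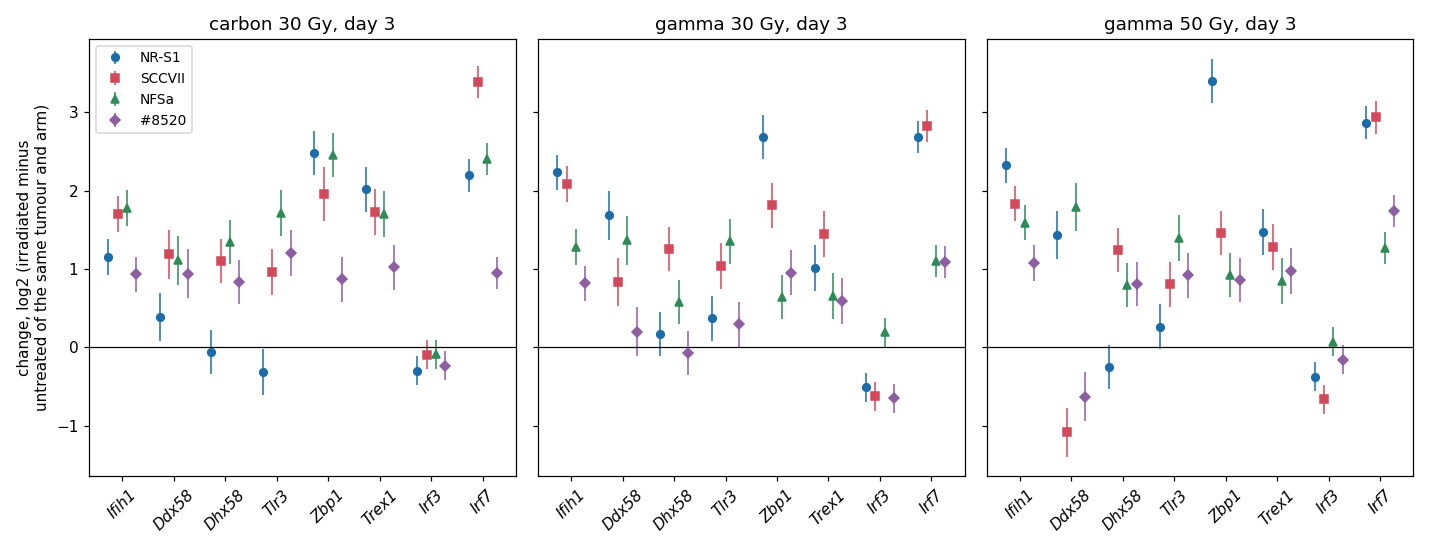
Day 3 response (y axis, log2, with 95% confidence intervals of the fit, 2 arrays against 2, or 2 against 1 for Zbp1 in SCCVII after carbon ions) of the 8 genes (x axis) in each tumour after carbon ions, 30 Gy and 50 Gy of gamma rays. In NR-S1 Dhx58 and Tlr3 lie between -0.32 and 0.37 while Zbp1 lies between 2.48 and 3.40, and in SCCVII after 50 Gy Ddx58 lies at -1.09.

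Without irradiation #8520 had the highest levels of most members in the mean of both arms. On that average Irf7 stood at 6.55 in #8520, 5.87 in NFSa, 4.86 in NR-S1 and 4.69 in SCCVII. Zbp1 stood at 5.20, 4.48, 2.05 and 4.47 in the same order. Ifih1 was at 5.77, 4.63, 3.97 and 4.87, and Ddx58 at 4.16, 3.62, 2.58 and 3.62. The lead of #8520 in these 4 genes did not hold in each arm. In the gamma arm alone NFSa stood above #8520 in Zbp1, at 5.67 against 5.32, and in Irf7, at 6.52 against 6.46. Trex1 followed with 4.59, 4.15, 2.68 and 3.53, Tlr3 with 1.81, 0.31, 1.39 and 1.17, and Irf3 with 2.66, 1.97, 1.95 and 2.31. Dhx58 broke the order, at 0.61, -0.28, 1.81 and -0.19, highest in NR-S1.

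In the mean of both arms all 8 members differed between #8520 and SCCVII and all 8 between #8520 and NFSa, each higher in #8520 (limma), beside 25.8% and 31.5% of all genes, although Zbp1 and Irf7 were higher in NFSa in the gamma arm. Against NR-S1, 7 were higher in #8520, beside 37.3%, and Dhx58 lower. Some neighbours in these orders missed the threshold. The 95% interval of the difference of SCCVII from NFSa was -0.22 to 0.22 in Ddx58, -0.23 to 0.22 in Zbp1 and -0.11 to 0.29 in Dhx58. That of NR-S1 from NFSa was -0.15 to 0.11 in Irf3, and that of NR-S1 from SCCVII was 0.0091 to 0.42 in Tlr3. The interval of Tlr3 lay above 0, and its difference missed the threshold after adjustment (adjusted p = 0.057, limma). These intervals leave out the gaps between the arms. Zbp1 in NFSa was at 3.28 in the carbon and 5.67 in the gamma arm, and in SCCVII at 4.32 and 4.63. NFSa was thus the lower of these tumours in the carbon arm and the higher in the gamma arm.

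The untreated tumours of the 2 arms were not alike, with the widest gaps in Zbp1 in NFSa and Irf7 in NR-S1. Irf7 in NR-S1 read 5.99 and 6.11 in the carbon arm and 3.57 and 3.77 in the gamma arm, a difference of 2.38 (SE 0.10), beside a day 3 response to carbon ions of 2.19. Ifih1, Zbp1, Ddx58 and Tlr3 were also higher in the carbon arm of NR-S1, by 1.93, 1.49, 1.29 and 0.91. Dhx58 went the other way, at 1.09 and 0.81 against 2.64 and 2.73, a difference of -1.73. In NFSa the carbon arm was the lower one for Zbp1, at 3.42 and 3.14 against 5.71 and 5.63, a difference of -2.39. There Irf7, Trex1 and Ifih1 differed by -1.30, -1.05 and -0.84. The tumour with the widest gap was not the same for each gene, and Irf3 had its widest in SCCVII, 0.77, and Trex1 its narrowest in NR-S1, 0.16. In all, 7 of 8 members differed between arms in NR-S1, 5 in SCCVII, 7 in NFSa and 4 in #8520 (limma), beside 49.3%, 46.4%, 49.2% and 35.6% of all genes. Arm and any difference in when or how these arrays were made cannot be told apart.

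**Figure D4:**
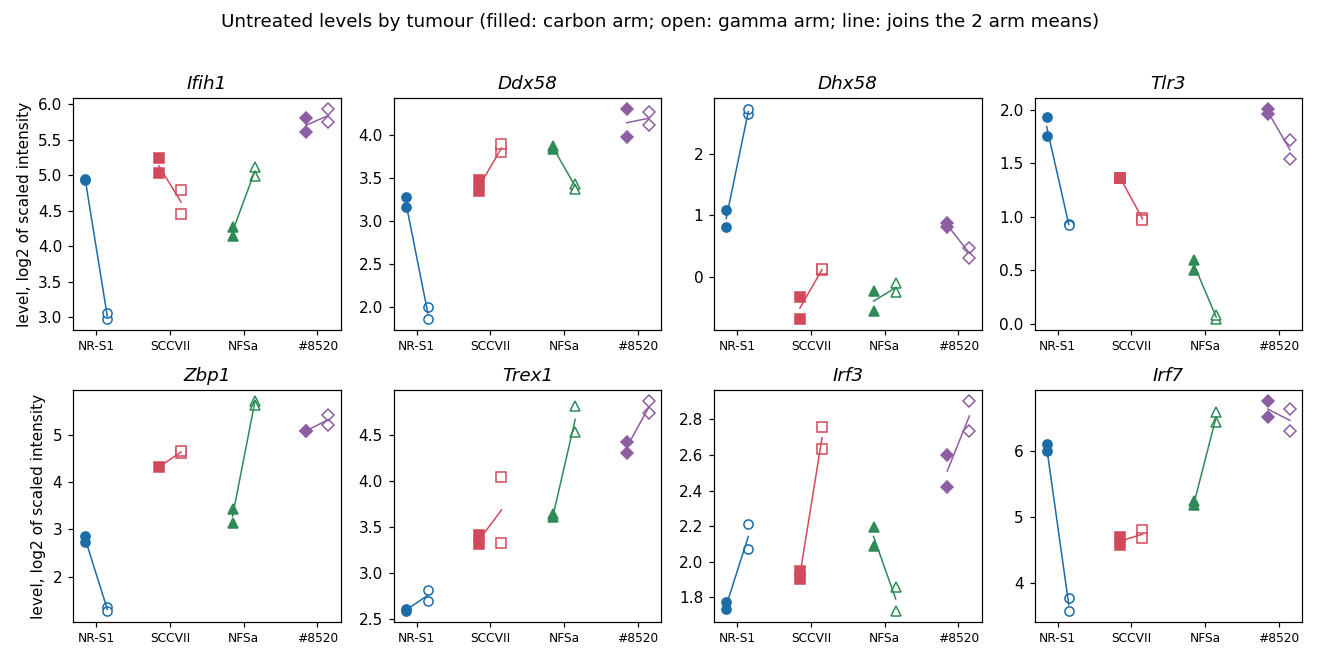
Untreated levels (y axes, log2 of the scaled intensity, with a separate range per panel) of the 8 genes by tumour (x axis), with filled points for the carbon arm, open points for the gamma arm and a line joining the 2 arm means. In NR-S1 the arm means of Irf7 differ by 2.38 and in NFSa those of Zbp1 by 2.39, while #8520 stays within 0.46 for every gene.

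Set against the 4 untreated arrays of both arms of the same tumour, most day 3 levels of the sensors and Irf7 lay above. Both carbon-ion arrays lay above all 4 in 25 of the 32 pairs of a member and a tumour and below in 3, where over all genes 22% lay above and 29.6% below. For 30 Gy of gamma rays 24 were above and 2 below, beside 20.1% and 24.2%, and for 50 Gy 24 and 2, beside 22.6% and 32.7%. Ifih1, Irf7 and Trex1 were above in 12 of 12 combinations of tumour and arm, Zbp1 in 11, Ddx58 and Dhx58 in 9 and Tlr3 in 8, and Irf3 in 0. In SCCVII, Zbp1 was set against the 3 untreated arrays with a value. This comparison was chosen after the data were seen.

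At 6 h and day 1 after carbon ions most members moved in opposite directions in different tumours, and the means lay between -0.21 and 0.43. Trex1 at 6 h was higher in 4 of 4 tumours, and Tlr3 at day 1 was lower in 4 of 4. At 6 h after carbon ions 4 rose and 1 fell in the mean (limma), beside 21% and 19.5% of all genes. Irf7 fell in NR-S1, from 5.99 and 6.11 to 5.21 and 5.36, and rose in SCCVII, from 4.69 and 4.58 to 5.41 and 5.49. The responses were -0.77 and 0.81, and in #8520 0 of 8 members passed in limma, beside 28.4% of all genes, with values from -0.20 to 0.062 and 0 at an unadjusted p under 0.05. In SCCVII Irf7 and Zbp1 stood higher at day 1 than at 6 h. Irf7 was at 6.20 and 6.36 and Zbp1 at 5.57 and 5.72, responses of 1.64 and 1.33, the latter against a single untreated array. Ifih1 went from a response of 0.67 at 6 h to 0.41 at day 1 there, and Tlr3 from 0.15 to -0.015. In NR-S1 Irf7 and Zbp1 were below untreated at day 1, at -0.67 and -0.89. The mean at day 1 passed for 2 genes, Trex1 at 0.21 and Irf7 at 0.18, beside 25.5% of all genes, and without SCCVII the mean of Irf7 was -0.31. The direction in NR-S1 rests on the arm of the untreated tumours. Against those of both arms Irf7 in NR-S1 was 0.42 at 6 h and 0.52 at day 1, and the mean of Trex1 at day 1 was -0.034.

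After 30 Gy of gamma rays #8520 led the falls at 6 h and NFSa at day 1. At 6 h after 30 Gy all 8 members were lower in #8520, beside 24.1% of all genes, with Tlr3 going from 1.72 and 1.54 to 0.13 and 0.14, a response of -1.49. In NR-S1 4 members rose at that time, with Zbp1 at 1.19, Trex1 at 0.93 and Irf7 at 0.76, beside 11.1% of all genes. Against the untreated arrays of both arms that of Irf7 was -0.43. At day 1 the places of the tumours were others. In #8520 Irf7 stood at 7.37 and 7.52 against 6.30 and 6.63 untreated, and 5 members were higher, beside 17.8%. In NFSa 5 members were lower, beside 8.97%, with Zbp1 falling from 5.71 and 5.63 to 3.65 and 3.85, a response of -1.92, and Irf7 at -1.64. The fall of Zbp1 rests on the untreated gamma arm, since the untreated NFSa mean in the carbon arm was 3.28. Both Irf7 arrays lay below all 4 untreated arrays of both arms. The means over 4 tumours passed for 2 members at 6 h (Trex1 0.26, Tlr3 -0.28) and 1 at day 1 (Irf3 -0.21), beside 37.7% and 42.8% of all genes. Without #8520 the mean of Tlr3 at 6 h was 0.12.

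After 50 Gy of gamma rays most of the early means were below untreated. At 6 h 5 members were lower and 0 higher, beside 26.9% and 22.8% of all genes, led by Zbp1 at -0.88 and Tlr3 at -0.84, and the other 3 missed the threshold, the highest at 0.027. Tlr3 was lower and passed in all 4 tumours, with responses from -1.80 to -0.41. Zbp1 passed as lower in NFSa and #8520. It went from 5.71 and 5.63 to 3.29 and 3.51 in NFSa and from 5.21 and 5.42 to 3.87 and 3.69 in #8520. In NFSa these levels overlapped the untreated arrays of the carbon arm, whose mean was 3.28. In NR-S1 Zbp1 went up, from 1.35 and 1.27 to 1.87 and 1.93, and against the untreated arrays of both arms its response there was -0.15. At day 1 all 8 members were lower in the mean, beside 45.1%, from -0.90 for Ddx58 to -0.18 for Dhx58. Both ends changed sign in other settings, Ddx58 to 0.022 without SCCVII and #8520, whose arrays had the raised dim probes, and Dhx58 to 0.089 against the untreated arrays of both arms. The median over all genes was -0.095 at that time, and quantile normalization took Irf3 from -0.19 to 0.040. Without NFSa 5 of the 8 passed, and Ifih1 stood at 0.078. From day 1 to day 3 the mean of Irf7 rose by 2.72 after 50 Gy, by 1.99 after 30 Gy and by 2.06 after carbon ions. Over the same step 7, 7 and 7 of the 8 members rose, beside 21.6%, 15.5% and 19.7% of all genes. With each tumour as 1 replicate 6, 0 and 4 members passed for this step.

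Carbon ions and gamma rays at the same 30 Gy were compared as responses, each against its own untreated arm. At day 3, 6 of 8 members differed, 5 higher after carbon ions and 1 lower, beside 15.8% and 20.2% of all genes. Trex1 differed most, by 0.69 (SE 0.10, adjusted p = 2.9e-07, limma). By tumour this was 1.05 in NFSa, 1.00 in NR-S1, 0.43 in #8520 and 0.28 in SCCVII, of which the first 2 passed. Yet in NFSa the day 3 levels overlapped, 5.39 and 5.27 after carbon ions and 5.12 and 5.55 after gamma rays, and it was the untreated pairs that lay apart, 3.64 and 3.61 against 4.82 and 4.53. In NR-S1 the untreated pairs were close, 2.58 and 2.61 against 2.82 and 2.70, and the day 3 pairs were apart, 4.48 and 4.73 against 4.01 and 3.54.

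The other 5 differences at day 3 were 0.42 for Zbp1, 0.32 for Dhx58, 0.31 for Irf7, 0.22 for Irf3 and -0.21 for Ifih1. Those of Ddx58 and Tlr3 missed the threshold, at -0.11 and 0.13, with 95% intervals of -0.33 to 0.11 and -0.078 to 0.33. Single tumours disagreed, with Irf7 at 1.31 in NFSa and -0.49 in NR-S1, and without NFSa the means of Zbp1 and Irf7 were -0.048 and -0.023. Against the untreated arrays of both arms, which compares the irradiated levels themselves, Irf7 differed by 0.60, Tlr3 by 0.66, Zbp1 by 0.053 and Trex1 by 0.20, while Ddx58, Ifih1, Dhx58 and Irf3 changed sign to 0.20, 0.15, -0.21 and -0.060. With each tumour as 1 replicate 0 of 8 passed in limma, and 1 had an unadjusted p under 0.05. At 6 h 0 members passed in limma, 2 at an unadjusted p under 0.05, beside 15.9% of all genes, and at day 1 2 did, Irf3 at 0.24 and Irf7 at 0.24, beside 25.1%. Without NR-S1, where 5 members were lower after carbon ions, beside 7.63% of all genes, 6 differed at 6 h, and against the untreated arrays of both arms 8, 7 and 6 members differed at 6 h, day 1 and day 3.

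The 2 gamma doses share their untreated arrays, so their difference is one of irradiated levels. At 6 h 7 members were lower at 50 than at 30 Gy, beside 16.2% of all genes, with Zbp1 at -0.72 (SE 0.071) and Irf7 at -0.54. NFSa held the widest gaps, with Zbp1 at 5.63 and 5.27 after 30 Gy and 3.29 and 3.51 after 50 Gy. At day 1 6 members were lower at 50 Gy, beside 43.1%, and in #8520 Irf7 stood at 7.37 and 7.52 against 6.22 and 6.21. At day 3 4 members were higher at 50 Gy and Ddx58 lower, beside 23.9% and 35.5%, with Irf7 at 0.28 and Trex1 at 0.22. Leaving out SCCVII and #8520, whose 50 Gy arrays of day 1 and day 3 had the raised dim probes, took the counts from 6 to 0 and from 5 to 2. With each tumour as 1 replicate 0 members passed at any time in limma, with 2, 0 and 0 at an unadjusted p under 0.05.

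Ddx58 had the widest mean dose gap at day 1 and day 3, -0.88 and -0.64, and in SCCVII it parted from Ifih1. At day 1 Ddx58 in SCCVII read 3.77 and 3.71 after 30 Gy and 1.79 and 2.18 after 50 Gy, and Ifih1 read 4.62 and 4.77 and 4.68 and 4.60. At day 3 Ddx58 read 4.81 and 4.54 and 2.78 and 2.74, and Ifih1 6.60 and 6.81 and 6.41 and 6.49. The Ddx58 pairs were far apart and those of Ifih1 close. The dose differences of Ddx58 in SCCVII were -1.76 and -1.92 (SE 0.16), and without SCCVII and #8520 the means were 0.12 and 0.087. In #8520 Ddx58 was low at 50 Gy from 6 h on, at 2.32 and 2.16 against 3.02 and 3.18, and those 6 h arrays had no raised dim probes.

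Across the 44 group means, each taken relative to the mean of its tumour, 4 of the members moved closely together. Pearson's r among Ifih1, Irf7, Zbp1 and Trex1 ran from 0.84 to 0.97 over their 6 pairs. Within single tumours, over 11 groups each, it ran from 0.59 to 0.98 in NR-S1 and from 0.85 to 0.99 over the other 3 tumours. Dhx58 stood apart, with r from 0.16 to 0.47 with the members other than Irf3, and Irf3 had r from -0.55 to 0.018 with the rest. In NR-S1 alone the r of Dhx58 ran from -0.68 with Tlr3 to 0.057 with Trex1, beside 0.45 with Irf3. In NFSa it reached 0.90, with Irf7. These are descriptions, with the 4 genes picked from their values, over points that share tumours and arms. The genes with the pattern most like a member were, for Ifih1, Oas1b (r = 0.98), Oas1a and Irf7, and for Irf7, Ifih1, Oasl2 and Oas2, of which the Oas genes encode oligoadenylate synthetases. For Zbp1 they were Oasl2 (r = 0.95), Phf11a and Phf11b, and for Trex1 Mx1 (r = 0.94), Daxx and the RNA-editing enzyme Adar. For Tlr3 they were Uba7 (r = 0.91), the activating enzyme of the ubiquitin-like ISG15, Ifit2 and Trim21, and for Ddx58 Bst2 (r = 0.90), Sp110 and Tdrd7. For Dhx58 the 3 nearest genes were Cox15 (r = 0.69), Akap4 and Adap2, and for Irf3 Tcaf1 (r = 0.84), Ankzf1 and Jmjd7.

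Other genes of the pathway were taken from lists, given here for day 3 after carbon ions unless stated, where the percentages above are the background and the median over all genes was -0.079. Of the interferon effectors, antiviral genes downstream of the members, 10 of 10 rose in each of the 3 arms, with medians of 2.17 after carbon ions, 1.66 after 30 Gy and 1.73 after 50 Gy of gamma rays. Mx1 rose by 2.75, Oasl1 by 2.68 and Rsad2 by 2.44. Of the interferon receptor and signal genes 8 of 10 rose and 1 fell (median 0.30), with the feedback inhibitors Usp18 at 2.25 and Socs1 at 0.92, the transcription factor Stat2 at 1.30, and the receptor chain Ifnar2 lower at -0.47. After gamma rays 4 rose and 4 fell at 30 Gy, and 4 rose and 3 fell at 50 Gy. Of the other interferon regulatory factors 5 of 5 rose after carbon ions, 2 after 30 Gy and 3 after 50 Gy of gamma rays, with Irf8 at 1.57, Irf9 at 0.73 and Irf1 at 0.56. The adaptors and kinases between the RNA sensors and the IRFs moved less, with 5 of 11 higher and 0 lower (median 0.12). They were led by the kinase Ikbke at 0.90 and the ubiquitin ligases Rnf135 at 0.78 and Trim25 at 0.40, which act on RIG-I. After gamma rays 3 rose and 1 fell at 30 Gy, and 6 rose and 3 fell at 50 Gy.

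Trex1 acts in the cytosolic DNA pathway. Of 5 other genes of DNA sensing 1 rose, the adaptor Sting1 at 0.51, and 4 fell (median -0.23), beside the 26.4% and 41.8% of all genes, among them Mre11a at -0.82, a subunit of the double-strand break complex, the DNA sensor Cgas at -0.24 and Ddx41 at -0.23. After gamma rays 0 of these 5 rose and 2 fell at 30 Gy, and 1 rose and 3 fell at 50 Gy. Of the enzymes on nucleic acids 3 of 5 rose, Adar at 1.34, the dNTPase Samhd1 at 1.23 and the RNA-activated kinase Eif2ak2 at 0.47, while Rnaseh2c, a subunit of an enzyme that cleaves RNA in hybrids with DNA, fell, at -0.45. After each gamma dose 3 of these rose and 2 fell. Of the endosomal receptors and adaptors, relatives of Tlr3, 4 of 7 rose and 0 fell, with Tlr7 at 1.56, its chaperone Unc93b1 at 1.04 and the adaptor Myd88 at 0.50, and after gamma rays 4 rose and 0 fell at 30 Gy, and 2 rose and 1 fell at 50 Gy. Of 5 listed genes through which ZBP1 kills cells 3 had a probe, and Ripk1 and Casp8 had none. Of these 3, Mlkl rose by 0.22 after carbon ions, and Ripk3 and Fadd fell, at -0.22 and -0.28. Of 8 interferon ligands 5 had a probe and 0 passed the filter on dim genes, with untreated log2 levels of Ifnb1 between -1.86 and -1.41 in the 4 tumours, so no response of a ligand was tested.

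Some lists of host immune cell markers were higher at day 3 and others were not. Of all genes 26.4%, 23.1% and 28.7% rose after carbon ions, 30 Gy and 50 Gy of gamma rays, and 41.8%, 30.9% and 44.7% fell. Of 9 T and NK cell markers tested 9 rose after carbon ions (median 1.89), and after 30 and 50 Gy of gamma rays 5 rose, with 3 and 1 lower. Over the 11 with a probe the summed intensity in NR-S1 was 10.2 and 10.3 untreated and 71.7 and 75.7 at day 3 after carbon ions, but 10.4 and 10.4 after 30 Gy of gamma rays, where it was 7.73 and 7.78 untreated. In that last comparison Irf7 rose by 2.69 and Zbp1 by 2.69, and the sums of other markers were higher too, from 135 and 142 to 185 and 194 for macrophages and from 158 and 168 to 235 and 238 for plasmacytoid dendritic cells. The plasmacytoid sum was far higher in untreated NR-S1 than in the other untreated tumours, which lay at 42.2 to 85.8. Which of its 7 genes carried it was not tested, so it need not follow those cells. In NFSa the T and NK cell sum was 12.1 and 12.2 in the untreated carbon arm and 90.0 and 93.5 in the untreated gamma arm, the arm with the higher Zbp1. It was 14.2 and 14.5 at day 1 after 30 Gy, when Zbp1 had fallen, and 53.7 and 55.7 at day 3, below untreated, when 7 members had risen. Of 7 macrophage markers tested 6 rose and 0 fell after carbon ions, and 5 rose after each gamma dose, with 2 lower after 30 Gy and 1 after 50 Gy. Of 6 neutrophil markers 5, 4 and 6 rose and 0, 1 and 0 fell after carbon ions, 30 Gy and 50 Gy. Of 6 markers of plasmacytoid dendritic cells, which carry much IRF7, 3, 1 and 3 rose and 1, 2 and 1 fell. Of 7 markers of conventional dendritic cells 2, 1 and 1 rose and 2, 3 and 4 fell (medians -0.10, 0.018 and -0.25), and of 2 B cell markers 1 rose and 1 fell in each arm. The neutrophil sum in SCCVII was 12.1 and 12.4 untreated and 10.6 and 11.5 at day 3 after carbon ions. Over the 8 macrophage markers with a probe the sum in SCCVII went from 496 and 577 to 908 and 928 after carbon ions. The summed intensity of the 10 interferon effectors, in turn, differed between the untreated arms as the members did, at 80.7 and 84.4 in the carbon and 20.2 and 20.6 in the gamma arm of NR-S1, and 53.3 and 55.6 and 174 and 185 in NFSa. The part of host cells in the members' levels was not tested.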

How the data were processed

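RNA levels of 88 arrays, 44 groups of 2, were used. Per the labels' protocols, RNA was labelled with Cy5 and hybridised by the CodeLink protocol. The deposited values are a scaled intensity per probe, and the sources used here do not give the scanner software, the background step or the scaling. Array medians lay between 1.02 and 1.07, no further normalization was applied, and intensities were taken to log2, with values at or below 0 (0.150%) set missing, beside the 0.751% missing as deposited. Probes were named from the platform annotation updated by Entrez number: 21615 of 36227 had 1 symbol, 681 several and 13931 none. Per gene the probe with the highest mean was kept, and genes in the lowest 25% or with a value on under 80% of arrays were left out. Limma 3.58.1 in R 4.3.3 (package data.table, version 1.17.8) fitted 1 mean per group to all 88 arrays (44 residual degrees of freedom), with two-sided tests and Benjamini-Hochberg adjustment over the genes of a contrast, checked on simulated data. Levels and responses of the 8 members, their 3 nearest genes by r and, from each list, up to 3 genes each way with the largest mean response to carbon ions at day 3 are named. Members and lists were chosen with earlier results of these data known. The 16 other settings, among them quantile normalization, an offset, other filters, the untreated arrays of both arms, a replicate block and tumours as replicates, and the 88 arrays left out in turn are given at the end. The number of arrays limits the precision. Promoter sequences are from RefSeq.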

Additional observations from a re-analysis of the deposited data

Results flagged for a closer look

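The response to carbon ions differed between the 4 tumours, by a moderated F test in limma with Benjamini-Hochberg adjustment. At 6 h this held for 5 members, beside 45% of all genes, with F of 46.1 for Irf7, 36.1 for Zbp1, 22.0 for Ifih1, 8.65 for Tlr3 and 5.02 for Ddx58. At 6 h these genes were lower in NR-S1 and those of them that passed in SCCVII were higher. At day 1 it held for 4 of 8 members, no larger a share than the 58.3% of all genes. There F was 99.9 for Irf7, 34.8 for Zbp1, 17.7 for Dhx58 and 6.46 for Ifih1, and SCCVII had the highest responses of Irf7 and Zbp1. At day 3 it held for 7 members, beside 61.9%, with F of 96.3 for Irf7, 35.6 for Tlr3, 28.8 for Zbp1, 19.1 for Dhx58, 13.6 for Ifih1, 8.39 for Trex1 and 5.45 for Ddx58. Irf7 ranged there from 0.95 in #8520 to 3.39 in SCCVII. The response to gamma rays also differed between tumours, for 8, 7 and 8 members at 6 h, day 1 and day 3 after 30 Gy, beside 36.9%, 52.4% and 56% of all genes, and for 8, 7 and 8 after 50 Gy, beside 59.6%, 76.5% and 77%.

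The mean response differed between carbon ions and gamma rays at 30 Gy in 8 results, 6 at day 3 and 2 at day 1. At day 3, 5 members were higher after carbon ions and 1 lower, beside 15.8% and 20.2% of all genes. At day 3 the differences were 0.69 for Trex1, 0.42 for Zbp1, 0.32 for Dhx58, 0.31 for Irf7, 0.22 for Irf3 and -0.21 for Ifih1. At day 1 they were 0.24 for Irf3 and 0.24 for Irf7, 2 of 8 members, which is no larger a share than the 25.1% of all genes. Against the untreated arrays of both arms that of Irf3 at day 1 was -0.041. Without NFSa or without SCCVII that of Irf7 was -0.12 or -0.20. Each gamma group and carbon group has its own untreated arrays, and the beam, the arm and the untreated tumours cannot be told apart.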

How the results depend on the processing

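The day 3 rise of 7 members and the fall of Irf3 in the mean over 4 tumours kept their direction in every setting that gave a value, except for Ddx58 after 50 Gy without NFSa. Calls were lost with each tumour as 1 replicate, for Irf3 after 50 Gy with quantile normalization (-0.069, adjusted p = 0.16, limma) and for Ddx58 after 50 Gy without NFSa or NR-S1. Without SCCVII carbon untreated replicate 2, the array that holds its only untreated value there, Zbp1 had no value after carbon ions, and 7 members passed at day 3. At 6 h and day 1, and between the beams, results turned with the choice of untreated arrays and of tumours, and the cause was not tested. With each tumour as 1 replicate in limma, 5 members passed at day 3 after carbon ions and 4 from day 1 to day 3 after carbon ions, against 8 and 8, and 0 passed at day 3 after 30 and 50 Gy, for the early responses, the beam and dose differences, the steps from 6 h to day 1, and from day 1 to day 3 after 30 Gy. In those comparisons 0 to 7 members had an unadjusted p under 0.05. Against the untreated arrays of both arms the counts that passed went from 0 to 8 for the beam difference at 6 h and from 2 to 7 at day 1, from 2 to 4 after carbon ions at day 1, and from 2 to 6 and 1 to 5 after 30 Gy of gamma rays at 6 h and day 1. Without SCCVII and #8520 at 50 Gy they went from 6 to 0 and 5 to 2 for the dose difference at day 1 and day 3, and from 7 to 4 for the step from 6 h to day 1. Leaving 1 tumour out of the mean was added after the data were seen. Without NFSa counts went to 1, 4 and 3 for the beam difference at 6 h, day 1 and day 3, to 3 after carbon ions at 6 h, to 4 and 5 after 30 Gy at 6 h and day 1, and to 5 after 50 Gy at day 1. Without NR-S1 they went to 6 for the beam difference at 6 h and to 4 and 3 after 30 Gy at 6 h and day 1. Without SCCVII they went to 1 for the beam difference at day 1 and 3 after 30 Gy at day 1, and without #8520 to 4 and 4 after 30 Gy at 6 h and day 1 and 3 after 50 Gy at 6 h. Quantile normalization gave 3 for the beam difference at 6 h and 3 after 30 Gy at day 1, and a fit on the arrays compared gave 1 and 2.

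Against the untreated arrays of both arms the beam difference changed sign, to Ddx58 0.24, Dhx58 -0.50, Ifih1 0.30, Irf3 -0.041, Tlr3 0.42, Trex1 -0.39 and Zbp1 -0.19 at day 1, Ddx58 0.20, Dhx58 -0.21, Ifih1 0.15 and Irf3 -0.060 at day 3 and Dhx58 -0.27, Irf3 -0.16, Trex1 -0.32 and Zbp1 -0.18 at 6 h. The response of NR-S1 changed sign, to Ddx58 0.15, Dhx58 -0.53, Ifih1 0.52 and Irf7 0.42 after carbon ions at 6 h, Ddx58 0.26, Dhx58 -0.56, Ifih1 0.79, Irf7 0.52 and Tlr3 0.34 after carbon ions at day 1 and Ddx58 -0.46, Dhx58 0.57, Ifih1 -0.52 and Irf7 -0.87 after 30 Gy of gamma rays at day 1. The response of NR-S1 changed sign, to Ddx58 -0.52, Dhx58 0.84, Ifih1 -0.34, Irf7 -0.51 and Zbp1 -0.15 after 50 Gy of gamma rays at 6 h, Ddx58 -0.44, Dhx58 0.52, Ifih1 -0.43 and Irf7 -0.89 after 50 Gy of gamma rays at day 1 and Dhx58 0.63, Ifih1 -0.28, Irf7 -0.43 and Tlr3 -0.42 after 30 Gy of gamma rays at 6 h. The response of NR-S1 changed sign, to Dhx58 0.61 after 50 Gy of gamma rays at day 3 and Tlr3 -0.088 after 30 Gy of gamma rays at day 3. The mean response changed sign, to Dhx58 -0.14, Tlr3 0.059 and Zbp1 -0.16 after carbon ions at 6 h, Dhx58 0.14 after 30 Gy of gamma rays at day 1 and Dhx58 0.089 after 50 Gy of gamma rays at day 1. The mean response changed sign, to Ifih1 -0.11 after 30 Gy of gamma rays at 6 h and Irf3 -0.11 and Trex1 -0.034 after carbon ions at day 1. The response of SCCVII changed sign, to Ifih1 -0.24 and Irf3 0.12 after 50 Gy of gamma rays at day 1, Irf3 -0.31 after carbon ions at day 1 and Irf3 0.13 after 30 Gy of gamma rays at day 1. The response of SCCVII changed sign, to Irf3 0.27 after 50 Gy of gamma rays at 6 h. The response of NFSa changed sign, to Irf7 -0.14 and Zbp1 -0.70 after carbon ions at 6 h, Trex1 -0.45 and Zbp1 -1.11 after carbon ions at day 1 and Zbp1 0.97 after 30 Gy of gamma rays at 6 h. Without SCCVII and #8520 at 50 Gy the dose difference changed sign, to Ddx58 0.12, Ifih1 0.11 and Zbp1 0.13 at day 1 and Ddx58 0.087 and Dhx58 -0.11 at day 3. The mean response changed sign, to Ddx58 0.022 after 50 Gy of gamma rays at day 1. The step from 6 h to day 1 changed sign, to Ddx58 0.064, Ifih1 -0.10 and Irf7 -0.35 after 50 Gy of gamma rays. Without NFSa the mean response changed sign, to Ddx58 -0.096 after 50 Gy of gamma rays at day 3, Ifih1 0.078 after 50 Gy of gamma rays at day 1 and Irf7 0.46 and Zbp1 0.47 after 30 Gy of gamma rays at day 1. The beam difference changed sign, to Irf7 -0.12 and Zbp1 -0.44 at day 1 and Irf7 -0.023 and Zbp1 -0.048 at day 3. With quantile normalization the dose difference changed sign, to Ifih1 -0.23 at day 3. The response of #8520 changed sign, to Irf3 0.14 after 50 Gy of gamma rays at day 1 and Irf3 0.21 after 50 Gy of gamma rays at day 3. The response of SCCVII changed sign, to Irf3 0.22 and Trex1 0.15 after 50 Gy of gamma rays at day 1. The mean response changed sign, to Irf3 0.040 after 50 Gy of gamma rays at day 1. The step from 6 h to day 1 changed sign, to Irf3 0.088 after 50 Gy of gamma rays. Without SCCVII the beam difference changed sign, to Irf7 -0.20 at day 1. The mean response changed sign, to Irf7 -0.10 and Zbp1 -0.26 after carbon ions at 6 h and Irf7 -0.31 and Zbp1 -0.38 after carbon ions at day 1. Without #8520 the mean response changed sign, to Ifih1 -0.20 after 30 Gy of gamma rays at day 1 and Irf7 0.17 and Tlr3 0.12 after 30 Gy of gamma rays at 6 h. Without NR-S1 the beam difference changed sign, to Ifih1 0.077 at day 3.

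With 1 array left out in turn the counts ran from 0 to 1 for the beam difference at 6 h, 2 to 5 for the dose difference at day 3, 3 to 5 after carbon ions at 6 h, 1 to 3 after carbon ions at day 1, 1 to 2 after 30 Gy at day 1 and 1 to 3 for the step from 6 h to day 1 after 30 Gy. The dose difference fell to 2 without NR-S1 30 Gy day 3 replicate 2, and to 3 without NFSa 30 Gy day 3 replicate 1 or #8520 50 Gy day 3 replicate 2. Carbon ions at 6 h gave 3 without NR-S1 carbon untreated replicate 1 or #8520 carbon 6 h replicate 1, and carbon ions at day 1 gave 1 without #8520 carbon day 1 replicate 2. Without SCCVII gamma untreated replicate 2, Trex1 in SCCVII at day 1 after 50 Gy went from -0.35 to 0.0092. The replicate block, which could be fitted where groups share array numbers (not gamma rays at day 1), gave 8 members at day 3 in each arm, 4 for the dose difference at day 3 and 3 after carbon ions at day 1. Dhx58 lost its call in that dose difference (adjusted p = 0.061, limma) and Tlr3 gained one after carbon ions at day 1 (adjusted p = 0.045). Arrays of 1 number deviated together with r over 0.1 in 16 of the 68 pairs of groups (r from -0.19 to 0.39). Most of those 16 were in the gamma arm of NFSa, with r up to 0.23 there. The numbers were not taken as pairs in the main fit. Each member had 1 probe, so no other probe could replace it, and without the dimmest 50% of genes Dhx58 had no value. Signal over background is not given, which limits how far low levels such as those of Dhx58 can be read.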
